A study of Zea mays with 18 samples.

Results

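Sulfate assimilation was represented in the study by 3 transcripts that its text or its list of transcripts checked by RT-PCR names, and these were followed here on every array. They encode APS reductase (APR, the transcript AC189750.4_FGT004), cysteine synthase C1 (GRMZM2G036708_T01) and APS kinase (GRMZM5G845021_T01), where APS is adenosine 5′-phosphosulfate. Each was measured by 1 probe, among the 39372 probes that are not controls. The 3 were chosen by their values on these same arrays, since the study lists APR as lower in Lo5 at 1 d and 4 d than at 0 d, cysteine synthase C1 as higher in Lo5 at 1 d, and APS kinase as higher in T250 at 4 d. These 4 changes are therefore described below without a test. Tests that share arrays with them, such as those between the lines at 0 d, are not independent of the choice.

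The samples were whole roots of seedlings of Lo5, a maize inbred line with high nitrogen use efficiency (NUE), and T250, an inbred line with low NUE. Seeds were soaked for 24 h and germinated for 4 d in the dark, the seedlings of both lines were kept for 48 h on 0.5 mM CaSO4, and roots were taken after 0, 1 and 4 d on a nutrient solution without N. Sulfate was supplied throughout, as 0.5 mM CaSO4 before 0 d and as 100 µM MgSO4, 200 µM K2SO4 and 400 µM CaSO4 in the solution without N. The 0 d roots thus came from CaSO4 alone, and the later roots from a solution with other nutrient salts. Each of the 6 groups, a line at a day, held 3 samples from repeated growth experiments, each a pool of the roots of 3 seedlings on 1 one-colour array. No array of plants kept on N was used here, so a change over days cannot be told apart from growth or from this change of solution.

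Plants take up sulfate and activate it to APS. APR reduces APS to sulfite, which enters cysteine after a further reduction to sulfide, and this step is regarded as a main control point of the pathway. APS kinase acts on the same substrate and turns it into the donor for sulfation reactions, so APR and APS kinase stand at a branch point. Cysteine synthases join sulfide to O-acetylserine, a carbon and N skeleton that links sulfate assimilation to N nutrition. In Arabidopsis the enzyme called cysteine synthase C1 is a mitochondrial β-cyanoalanine synthase, which uses cysteine to remove cyanide.

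A level here is the log2 of the spot signal over the 75th percentile of its array, so that a level of 0 is as bright as that percentile. An array held 28868 to 32446 probes well above background. All 54 spots of the 3 transcripts were well above background and none was saturated, while 6 of them carried a mark as non-uniform or as an outlier and were left out of means and fits. In whole roots, fewer cells of a type and less RNA per cell cannot be told apart. The array labelled Lo5 1 d replicate 3 stood apart from its label. On an index over 2551 transcripts, on which 0 is the mean of T250 and 1 that of Lo5, both at 0 d, it stood at 0.0050, whereas the other Lo5 arrays lay between 0.93 and 1.05 and the T250 arrays between −0.036 and 0.046. It was left in its labelled group, and ratios of the 3 transcripts that rest on it are given with and without it. For each probe the fit takes its residual spread from all arrays, so this array also enters the SE and p of other comparisons. Their SE and p are given with this array unless stated. Without it, the probes called (as defined below) rose from 14 to 43 in Lo5 at 4 d against 0 d, and from 52 to 222 in T250. Between the lines at 0 d they rose from 4156 to 5372.

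The root markers rth3, a root hair gene, and rtcs, a gene of crown root initiation, were well above background on 18 and 14 of the 18 arrays. The arrays without rtcs were all of Lo5, where no group had it well above background on all 3 arrays. Of 6 leaf probes (chlorophyll a-b binding proteins and the Rubisco small subunit), no more than 2 were well above background throughout the 3 arrays of any group. The summed leaf level was −3.42 to −2.88 in Lo5 at 0 d, −3.57 to −0.44 at 1 d and −5.23 to −3.05 at 4 d, and −2.51 to −1.98, −2.10 to −0.79 and −4.01 to −2.23 in T250. The leaf probes thus reached their lowest sum at 4 d in both lines, and their part in the results was not tested.

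APR, the reducing enzyme, was highest in Lo5 at 0 d, and within each line it was lowest at 4 d. In Lo5 its level was 0.38, 0.52 and 0.23 at 0 d in replicates 1, 2 and 3. At 1 d it was −0.74, −0.36 and −1.11, the last value being that of the array with the T250 profile. At 4 d it was −1.77, −1.18 and −1.22. The ranges of the 3 days did not overlap in Lo5, and every array of a later day was below every array of an earlier one. The gaps to 0 d chose APR and are not read as a result, and the nearest arrays of 1 d and 4 d were at −1.11 and −1.18. The share of all probes without overlap was not counted, so non-overlap is a description here and below.

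In T250 the APR level was −0.03, −0.84 and −1.02 at 0 d, and −1.41, −0.11 and −1.13 at 1 d. At 4 d it was −3.80, −1.66 and −1.66. The 0 d and 1 d arrays overlapped, whereas all 3 arrays at 4 d were below all arrays of both earlier days, and 1 of them, replicate 1, was far below the other 2.

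**Figure D1:**
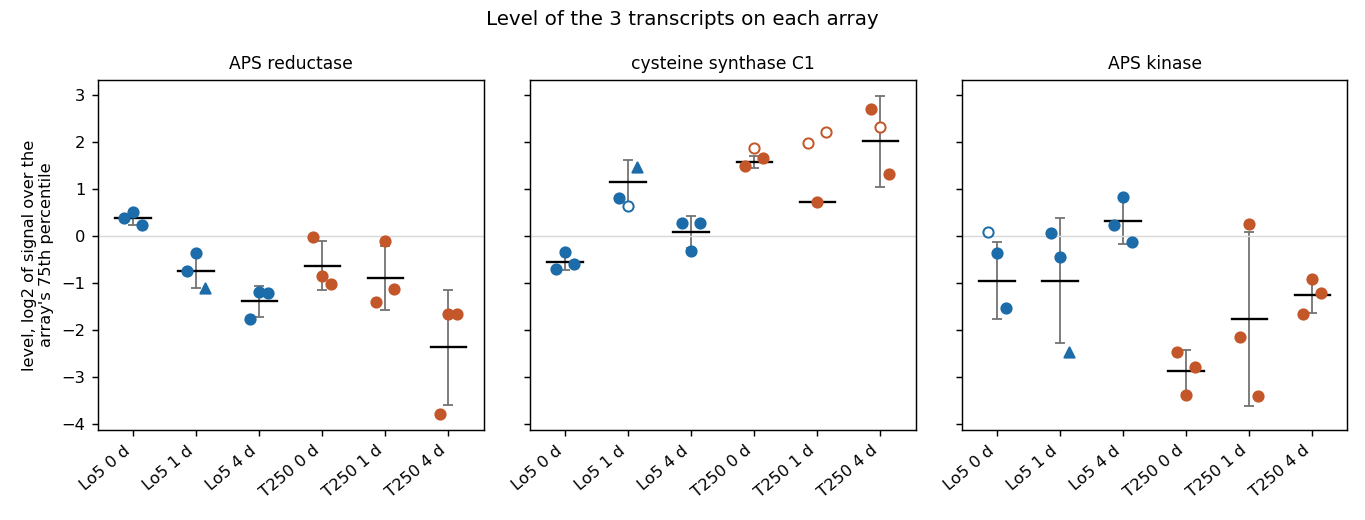
Level of APR (left), cysteine synthase C1 (middle) and APS kinase (right) on each array, as log2 of the signal over the 75th percentile of the array, by line and day (blue, Lo5; orange, T250). Open points are marked spots, the triangle is the array Lo5 1 d replicate 3, and lines with bars give the mean ± SD of the unmarked spots (n = 1 to 3, with no bar at n = 1). APR was lowest at 4 d in both lines, cysteine synthase C1 was lowest in Lo5 at 0 d, and APS kinase was lowest in T250 at 0 d.

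The mean APR level in Lo5 was 0.38 ± 0.15 (SD, n = 3) at 0 d, −0.74 ± 0.38 (SD, n = 3) at 1 d and −1.39 ± 0.33 (SD, n = 3) at 4 d. The log2 ratio to 0 d was −1.11 ± 0.51 (SE) at 1 d and −1.77 ± 0.51 (SE) at 4 d. Without Lo5 1 d replicate 3 the value at 1 d was −0.93 ± 0.57 (SE). Arrays that shared a slide differed in the same direction, by −1.12, −0.88 and −1.34 at 1 d on slides 1, 2 and 3, the last holding Lo5 1 d replicate 3, and by −2.29 and −1.41 at 4 d on slides 2 and 3. A probe was counted as called when limma gave an adjusted p of at most 0.05 (Benjamini-Hochberg over all probes tested) together with a log2 ratio of 1 or more in size, and 0.00976% of all probes were called at 1 d in Lo5 and 0.0457% at 4 d. Since both changes chose APR, nothing is read from its place against these shares.

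The change of APR in T250 did not enter the choice, except that the study lists APR for Lo5 alone. The mean level was −0.63 ± 0.53 (SD, n = 3) at 0 d, −0.88 ± 0.68 (SD, n = 3) at 1 d and −2.37 ± 1.23 (SD, n = 3) at 4 d. The log2 ratio of 4 d to 0 d was −1.74 ± 0.51 (SE), close to the value in Lo5, and did not pass the test after adjustment over all probes (limma, adjusted p = 0.145), in a comparison in which 0.171% of all probes were called. It was −1.03 without T250 4 d replicate 1 and −0.49 after another background correction (normexp). The only slide with both days gave −2.78, and its 4 d array is that same replicate 1. The ratio of 1 d to 0 d was −0.26 ± 0.51 (SE), and the share of all probes called there was 0.00997%. From 1 d to 4 d the ratio was −1.49 ± 0.51 (SE) in T250 and −0.66 ± 0.51 (SE) in Lo5, and neither passed the test (limma, adjusted p = 0.139 and 0.556). The latter was −0.84 ± 0.57 (SE) without Lo5 1 d replicate 3.

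The change of APR in Lo5 minus that in T250 was −0.03 ± 0.72 (SE) at 4 d and −0.86 ± 0.72 (SE) at 1 d, or −0.67 ± 0.77 (SE) without Lo5 1 d replicate 3. Both contain a change that chose APR and are given as a description.

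APR was higher in Lo5 than in T250 at 0 d, with no overlap of the arrays, by a log2 ratio of 1.01 ± 0.51 (SE), which did not pass the test (limma, adjusted p = 0.225). At that day 13.8% of all probes were called between the lines. With the slide as a block the ratio was 0.57 ± 0.52 (SE), and the slide that holds both lines at 0 d gave 0.41. At 1 d the ratio was 0.15 ± 0.51 (SE), or 0.34 ± 0.57 (SE) without Lo5 1 d replicate 3, and the arrays overlapped. It was −0.28 ± 0.52 (SE) with the slide as a block, and 0.67 within a slide. At 4 d it was 0.98 ± 0.51 (SE) with overlapping arrays (adjusted p = 0.194), and it turned to −0.16 with normexp. With the slide as a block it was 0.63 ± 0.48 (SE), and the slides with both lines at 4 d gave −0.12 and 0.48. In the order of the 6 group means over all arrays, only the first step, from Lo5 at 0 d to T250 at 0 d, was free of overlap, and each of the other 4 steps down to T250 at 4 d lay within the spread of the arrays.

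Cysteine synthase C1, of the family that completes cysteine, was lower in Lo5 than in T250 at 0 d and at 4 d, and both differences passed the test. The Lo5 arrays at 0 d also entered the change that chose this transcript, so the test at 0 d is not independent of it. In Lo5 its level was −0.70, −0.34 and −0.59 at 0 d. It was 0.81, 0.65 (marked) and 1.48 at 1 d, where the highest value belongs to Lo5 1 d replicate 3. It was 0.29, −0.31 and 0.28 at 4 d. The 3 days did not overlap in Lo5, with 1 d the highest and 0 d the lowest. The gap between 1 d and 0 d chose this transcript and is not read as a result.

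In T250 the level was 1.49, 1.87 (marked) and 1.67 at 0 d. It was 1.98 (marked), 0.72 and 2.21 (marked) at 1 d, which left a single unmarked spot in that group. It was 2.71, 2.33 (marked) and 1.33 at 4 d. The days overlapped in T250 once the marked spots were kept, and the unmarked array at 1 d was the lowest of the 9.

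The difference in Lo5 between 1 d and 0 d, on which this transcript was chosen, was a log2 ratio of 1.69 ± 0.42 (SE), with group means of −0.54 ± 0.18 (SD, n = 3) at 0 d and 1.15 ± 0.47 (SD, n = 2) at 1 d. With the marked spot kept it was 1.52 ± 0.41 (SE). Without Lo5 1 d replicate 3 it was 1.35 ± 0.52 (SE) and rested on 1 unmarked spot at 1 d, replicate 1. On slides 1 and 2 the arrays at 1 d and 0 d differed by 1.51 and 1.00 (the latter with the marked spot), and on slide 3, which holds the array with the T250 profile, by 2.07. The level of that array, 1.48, lay within the range of the T250 arrays and above the other 2 arrays of its group.

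By 4 d the level in Lo5 was 0.09 ± 0.35 (SD, n = 3), a log2 ratio to 0 d of 0.63 ± 0.37 (SE) that did not pass the test (limma, adjusted p = 0.765) although the arrays did not overlap. The ratio of 4 d to 1 d was −1.06 ± 0.42 (SE, adjusted p = 0.327), or −0.73 ± 0.52 (SE) without Lo5 1 d replicate 3. In T250 the ratio was 0.44 ± 0.46 (SE, adjusted p = 0.739) at 4 d, and −0.25 without T250 4 d replicate 1. At 1 d it was −0.86 ± 0.56 (SE) on the 1 unmarked spot, and −0.04 ± 0.41 (SE) with the marked spots kept. The change at 1 d differed between the lines by 2.55 ± 0.70 (SE), by 1.56 ± 0.57 (SE) with marked spots kept and by 2.21 ± 0.75 (SE) without Lo5 1 d replicate 3, which is a description since it contains the change that chose the transcript. At 4 d the changes differed by 0.19 ± 0.59 (SE).

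Between the lines, the log2 ratio of Lo5 to T250 for cysteine synthase C1 was −2.12 ± 0.42 (SE) at 0 d (limma, adjusted p = 0.0103) and −1.94 ± 0.42 (SE) at 4 d (adjusted p = 0.0104), when 20.0% of all probes were called. Every Lo5 array was below every T250 array at both days. The call ended with the slide as a block, with −1.89 ± 0.48 (SE, adjusted p = 0.0793) at 0 d and −1.86 ± 0.52 (SE, adjusted p = 0.0697) at 4 d, and also without T250 0 d replicate 3 (−2.03, adjusted p = 0.0570) or without T250 4 d replicate 1 (−1.25, adjusted p = 0.0769). Within a slide the lines differed by −2.19 at 0 d and by −2.04 (with a marked spot) and −1.65 at 4 d. At 1 d, when 4.24% of all probes were called, the ratio was 0.42 ± 0.56 (SE) and rested on 2 spots of Lo5 and 1 of T250, and it turned to −0.66 ± 0.41 (SE) with marked spots kept. It was 0.089 ± 0.63 (SE) without Lo5 1 d replicate 3.

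**Figure D2:**
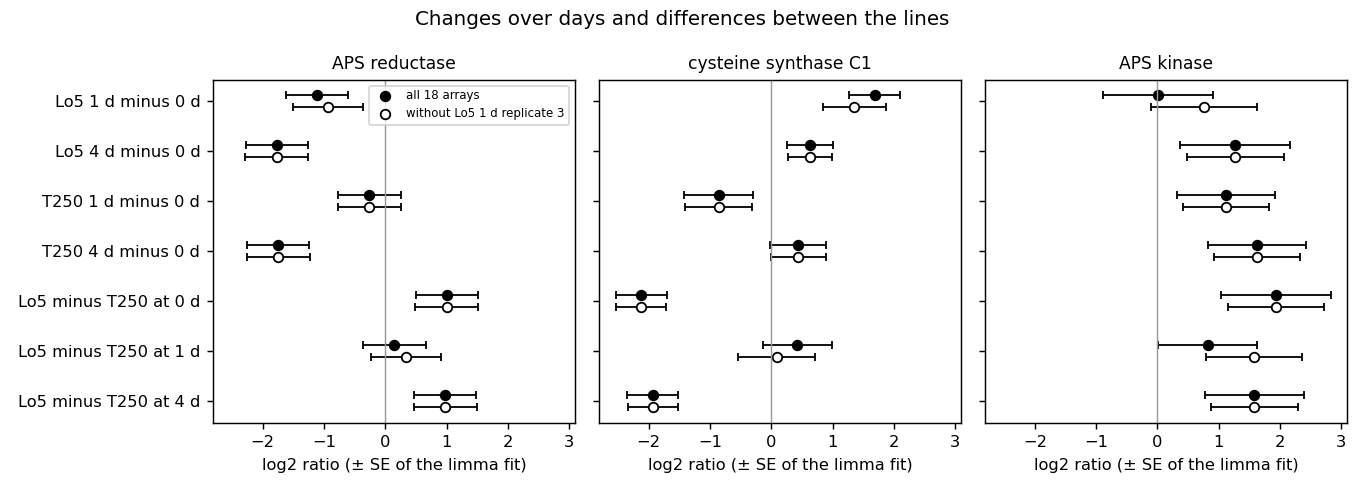
Log2 ratios of the 3 transcripts between days within a line and between the lines at each day, with the SE of the limma fit, from all 18 arrays (filled) and without Lo5 1 d replicate 3 (open). APR had ratios of −1.77 and −1.74 at 4 d in Lo5 and T250, cysteine synthase C1 was lower in Lo5 than in T250 at 0 d and 4 d, and APS kinase was above 0 in every comparison shown except that at 1 d in Lo5, where it was near 0 with all arrays.

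APS kinase, which draws APS into sulfation, had larger standard errors than the other 2 and was higher in Lo5 than in T250 at 0 d and 4 d without overlap. In Lo5 its level was 0.09 (marked), −0.37 and −1.53 at 0 d. It was 0.07, −0.45 and −2.46 at 1 d, and the lowest value is again that of Lo5 1 d replicate 3. It was 0.25, 0.83 and −0.12 at 4 d. The 3 days overlapped in Lo5 when the marked spot was kept.

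In T250 the APS kinase level was −2.48, −3.38 and −2.79 at 0 d. It was −2.14, 0.26 and −3.41 at 1 d, where replicate 2 stood above every other T250 array. It was −1.65, −0.92 and −1.22 at 4 d. All arrays at 4 d were above all arrays at 0 d, and the arrays at 1 d spanned both. The gap between 4 d and 0 d chose this transcript and is not read as a result.

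The difference in T250 between 4 d and 0 d, on which the transcript was chosen, was a log2 ratio of 1.62 ± 0.80 (SE), with group means of −2.88 ± 0.46 (SD, n = 3) at 0 d and −1.26 ± 0.37 (SD, n = 3) at 4 d, and the slide with both days gave 1.14. In Lo5, where the level at 4 d was 0.32 ± 0.48 (SD, n = 3), the ratio of 4 d to 0 d was 1.27 ± 0.90 (SE) and did not pass the test (limma, adjusted p = 0.812). It was 0.92 ± 0.79 (SE) with the marked spot kept, and 0.69 without Lo5 0 d replicate 3. The difference of the change at 4 d, Lo5 minus T250, was −0.35 ± 1.20 (SE), a description since it contains the difference that chose the transcript.

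At 1 d the APS kinase ratio to 0 d was 0.0040 ± 0.90 (SE) in Lo5 and 1.12 ± 0.80 (SE, adjusted p = 0.951) in T250. The first became 0.76 ± 0.87 (SE) without Lo5 1 d replicate 3 and −0.34 ± 0.79 (SE) with the marked spot kept. The second rested on T250 1 d replicate 2, without which it was 0.11, and the 3 slides that hold both days gave 0.34, 3.64 and −0.62. From 1 d to 4 d the ratio was 1.26 ± 0.80 (SE) in Lo5, or 0.51 ± 0.79 (SE) without Lo5 1 d replicate 3, and 0.50 ± 0.80 (SE) in T250, or −0.32 without T250 1 d replicate 3. None of the 4 changes passed the test with all arrays.

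The log2 ratio of Lo5 to T250 for APS kinase was 1.93 ± 0.90 (SE, adjusted p = 0.183) at 0 d, 0.82 ± 0.80 (SE, adjusted p = 0.640) at 1 d and 1.58 ± 0.80 (SE, adjusted p = 0.186) at 4 d (limma over all 18 arrays). Without Lo5 1 d replicate 3 the value at 1 d was 1.57 ± 0.79 (SE). When only the 6 arrays at 4 d were fitted, where the shared spread leaves out the 0 d and 1 d arrays, the difference at 4 d passed the test (limma, adjusted p = 0.0154). With the slide as a block the ratio was 2.03 ± 1.17 (SE) at 0 d and 1.20 ± 0.88 (SE) at 4 d. Within a slide the lines differed by 2.57 (with a marked spot) at 0 d, 2.21 at 1 d, and 1.17 and 2.05 at 4 d. All neighbours in the order of the 6 group means overlapped, from Lo5 at 4 d as the highest to T250 at 0 d as the lowest.

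No other gene of the pathway list was called over the days. The list, 9 genes taken by symbol, covers sulfite reductase (sir), the serine acetyltransferases that make O-acetylserine (sat1, sat2, sat3), the cysteine synthases cys1 and cys2, the glutathione synthesis genes gsh1 and gsh2, and cgs1 for cystathionine γ-synthase, which passes sulfur on towards methionine. Of these, 7 could be tested against 0 d, because sat3 was too dim and sat2 had only marked spots at 0 d. None of the 7 was called at 1 d or 4 d in either line by limma with adjustment, and at an unadjusted p of at most 0.05 the count was 0 in both Lo5 comparisons, 2 for the first day in T250 and 3 for the fourth. The shares of all probes at that p were 4.10% and 7.57% in Lo5 at 1 d and 4 d, and 6.28% and 13.2% in T250. The methods' t-test, which could test 5 or 6 of them in each comparison, called 0 as well after adjustment. Without T250 0 d replicate 1, 1 gene was called in T250 at each day. Their median log2 ratio was 0.10 and −0.14 in Lo5 at 1 d and 4 d, and −0.26 and −0.07 in T250. Over all probes tested the medians were −0.04, −0.10, 0.01 and −0.05.

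By the threshold of the study's methods applied to the limma p (an unadjusted p of at most 0.01, with a log2 ratio of 1 or more in size), 0.618% and 1.68% of all probes passed in Lo5 at 1 d and 4 d, and 1.38% and 3.89% in T250. The only one of the 7 to pass was sat1, lower in T250 at both days. At 4 d sir, which reduces the sulfite that APR makes, had log2 ratios of 0.77 in Lo5 and 0.51 in T250. These rested on 1 unmarked spot in Lo5 at either day and on 1 in T250 at 0 d. With its marked spots kept, sir had −0.15 in Lo5 and 0.51 in T250. With marked spots left out, cys1 had −0.14 and 0.04, and cys2 had −0.47 and −0.87. gsh1, for the first enzyme of glutathione synthesis, had −0.69 in Lo5 and −2.47 in T250 (adjusted p = 0.308), and gsh2 had 0.16 and −0.07.

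**Figure D3:**
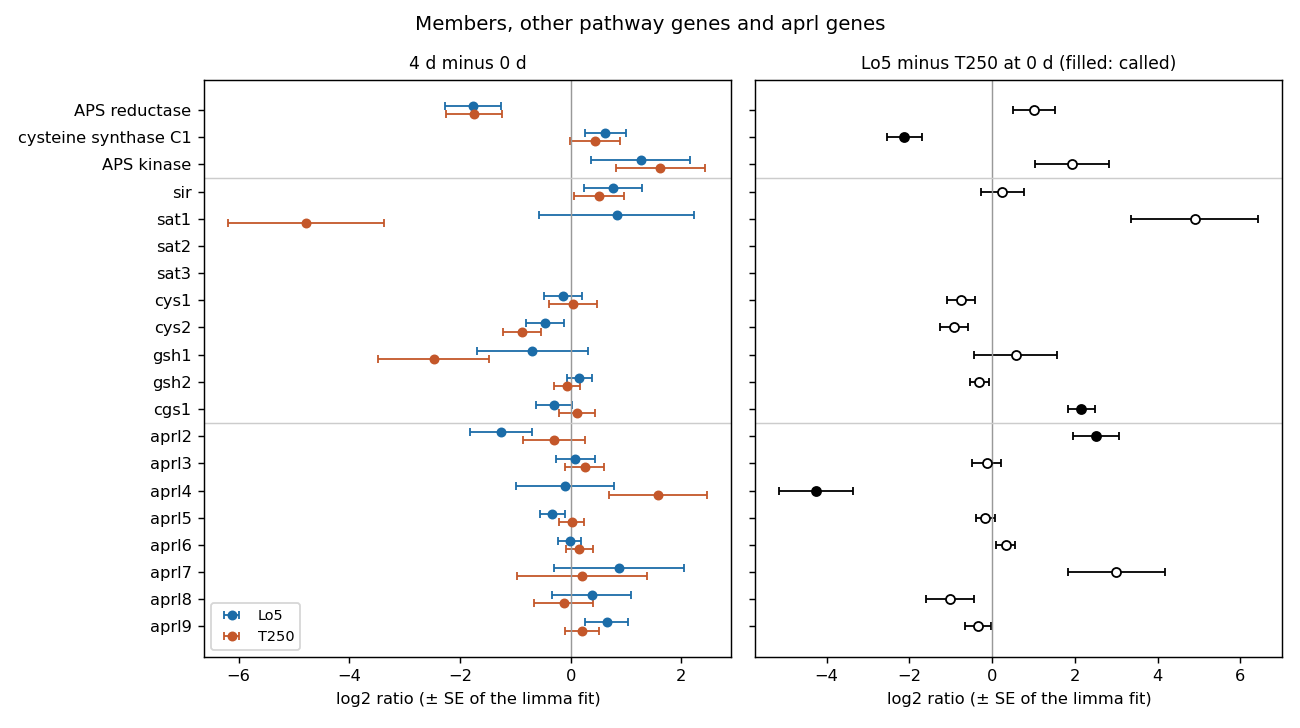
Log2 ratio of 4 d to 0 d in Lo5 (blue) and T250 (orange), and of Lo5 to T250 at 0 d (right, filled where called), for the 3 transcripts, the other pathway genes and the aprl genes, with the SE of the limma fit. No ratio is drawn for sat2 and sat3, and the T250 values of sat1 and aprl7 and the Lo5 value of aprl4 at 0 d rest in part on spots not well above background. Cysteine synthase C1, cgs1, aprl2 and aprl4 are the called genes at 0 d.

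Between the lines, cgs1 was higher in Lo5 at 0 d and 4 d, sat1 was higher in Lo5 at 1 d and 4 d, and no gene of the list was called lower in Lo5. Of 7 tested at 0 d, 1 was called, and of 8 tested at 1 d and at 4 d, 1 and 2 were called, beside 13.8%, 4.24% and 20.0% of all probes. The calls of sat1 set Lo5 against T250 arrays that were not well above background. Nothing particular to the list is read from these counts. The count was 2 at 0 d and at 1 d without Lo5 1 d replicate 3, 2 at 0 d without T250 0 d replicate 1 or 2, and 2 at 1 d without Lo5 1 d replicate 1.

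The cgs1 level was 2.98, 3.28 and 3.19 in Lo5 at 0 d against 0.92, 0.86 and 1.20 in T250. At 4 d it was 2.75, 2.70 and 3.12 against 1.22, 0.90 and 1.20. The lines did not overlap at either day, and the log2 ratio was 2.16 ± 0.32 (SE, limma, adjusted p = 0.00209) at 0 d and 1.75 ± 0.32 (SE, adjusted p = 0.00246) at 4 d. At 1 d it was 1.20 ± 0.36 (SE), and Lo5 1 d replicate 3 was not in that value because its spot was marked.

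sat1 had signal in Lo5 on all 9 arrays and in T250 only at 0 d, on 2 of 3 arrays. In Lo5 the level was 1.18, 0.94 and 0.31 (marked) at 0 d, 2.44, 1.11 and 1.02 (marked) at 1 d, and 1.61, 1.74 and 2.31 at 4 d. In T250 it was −7.27, −0.41 and 1.41 (marked) at 0 d, the first not well above background. At 1 d and 4 d all 6 T250 arrays were not well above background, between −9.24 and −7.69. Lo5 1 d replicate 3, the array with the T250 profile, held a level of 1.02 (marked) for this gene.

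Against the dimmest probes well above background on the T250 arrays, sat1 was at least 350-fold higher in Lo5 at 1 d (2 unmarked spots). At 4 d sat1 was at least 354-fold higher. Its probe was fitted only through the Lo5 arrays, where it was high, so no p is given for these differences. Within T250 neither ratio to 0 d was called (adjusted p = 0.613 at 1 d and 0.170 at 4 d), and no fold is given, because of the 2 unmarked spots at 0 d only replicate 2 was well above background.

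The 8 genes on the array with an aprl symbol are named for APS reductase-like proteins. They were taken by symbol alone, and whether they encode an APS reductase was not tested. None was called over days in either line by limma, nor by the methods' t-test, and at an unadjusted limma p of at most 0.05 the count was 2 and 1 of 8 in Lo5 at 1 d and 4 d and 0 in T250, beside the 4.10%, 7.57%, 6.28% and 13.2% of all probes given above. Their median log2 ratio at 4 d was 0.03 in Lo5 and 0.18 in T250, beside −1.77 and −1.74 for APR. The change in Lo5 chose APR, so nothing is read from its distance to these medians. Only aprl2 passed the threshold of the study's methods, in Lo5 at 1 d, with −1.74 ± 0.56 (SE). Its level was −1.08, −1.43 and −0.75 at 0 d, then −2.05, −2.17 and −4.25 at 1 d, the last being Lo5 1 d replicate 3, and −2.52, −1.73 and −2.77 at 4 d. Without that array the ratio at 1 d was −1.03 ± 0.47 (SE).

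Between the lines, 2 of the 8 aprl genes were called at 0 d and 2 at 4 d, with 1 in each direction, and 0 at 1 d, beside 13.8%, 20.0% and 4.24% of all probes. The count was 3 at each day without Lo5 1 d replicate 3, beside 5372 of 30235 probes at 0 d, 5071 of 30154 at 1 d and 7008 of 31053 at 4 d. aprl2 was higher in Lo5 at 0 d by 2.50 ± 0.56 (SE, limma, adjusted p = 0.00919), with T250 arrays at −3.77, −3.47 and −3.53. With the slide as a block the adjusted p was 0.0596. aprl4 was lower in Lo5 by −4.26 ± 0.89 (SE, adjusted p = 0.00658) at 0 d and by −5.95 ± 0.89 (SE, adjusted p = 0.000726) at 4 d. Its level was −6.01, −6.31 and −6.72 (not well above background) in Lo5 at 0 d and −1.44, −2.02 and −2.80 in T250, and on Lo5 1 d replicate 3 it was −1.43, as in T250 and unlike −5.55 and −6.34 on the other 2 arrays of its group. At 4 d it was −6.83, −6.57 and −5.93 in Lo5, all well above background, and −0.21, −0.18 and −1.10 in T250. aprl7 was called higher in Lo5 at 4 d (3.67 ± 1.18, SE, adjusted p = 0.0387), with levels of −1.87, −1.37 and −1.29 against −6.81, −6.19 and −2.52 in T250, where only the last array was well above background. The ratio and call of aprl7 thus rest in part on background, and nothing is read from them. With the slide as a block its adjusted p was 0.141. The 5 other aprl genes had ratios between −1.02 and 0.32 at 0 d and none was called.

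**Figure D4:**
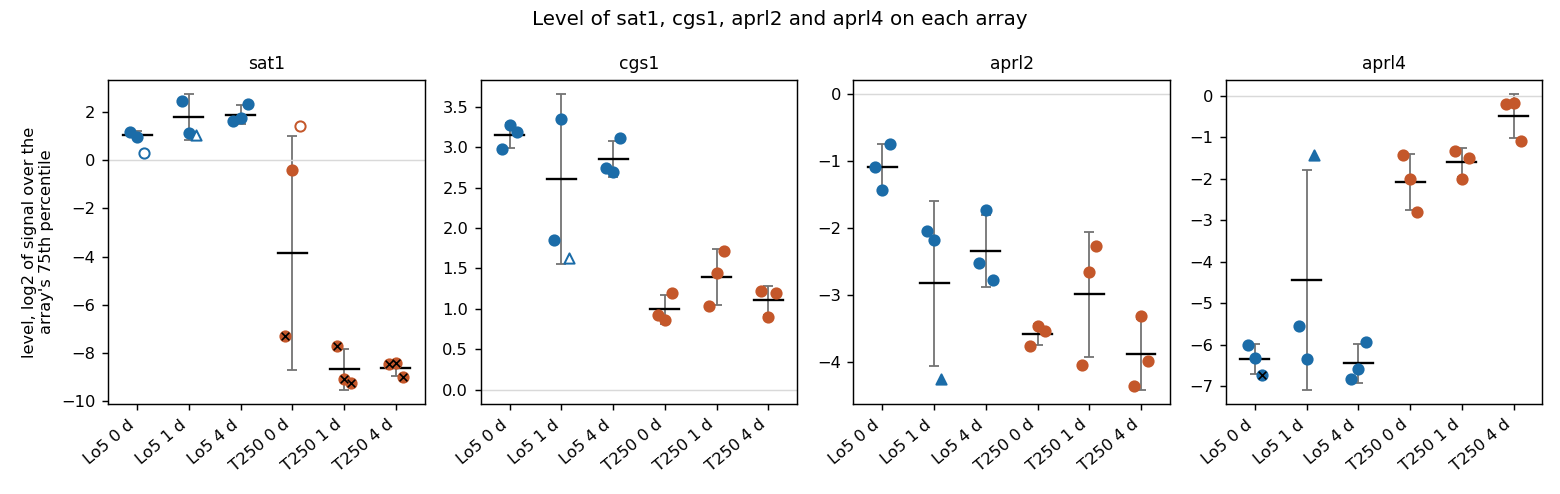
Level of sat1, cgs1, aprl2 and aprl4 on each array, as log2 of the signal over the 75th percentile of the array (blue, Lo5; orange, T250; open, marked spot; cross, not well above background; triangle, Lo5 1 d replicate 3; line and bar, mean ± SD of the unmarked spots). At 0 d and 4 d cgs1 was higher in Lo5 on every array and aprl4 higher in T250, and the triangle lies with T250 for aprl2 and aprl4 but with Lo5 for sat1.

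The transcripts whose level ran most like that of each of the 3 were sought among 15175 probes that were fitted, well above background and unmarked on all 18 arrays, with Pearson's r over the 18 arrays as the measure. The arrays share lines, days and slides, so that r is a description. The ratios given for these probes are a description too, since the probes were picked by r on the same arrays. For APR they were GRMZM2G138003_T01 (r = 0.88), GRMZM2G080243_T01 (r = 0.86) and GRMZM2G348100_T01 (r = 0.85), which all were lower at 4 d than at 0 d, with log2 ratios of −0.94 to −0.83 in Lo5 and −1.41 to −1.17 in T250. For cysteine synthase C1 they were GRMZM5G855776_T01 (r = 0.93), GRMZM2G171170_T01 (r = 0.91) and GRMZM2G360835_T01 (r = 0.91), which were lower in Lo5 than in T250 at 0 d by log2 ratios of −2.11 to −1.55. For APS kinase they were GRMZM2G397260_T01 (r = 0.89), GRMZM5G858880_T01 (r = 0.88) and GRMZM2G105180_T01 (r = 0.87), which were higher in Lo5 at 0 d by at least 1.1 and at most 1.66. The reference table gives no gene symbol for these 9. Without Lo5 1 d replicate 3 their r lay between 0.85 and 0.93.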

How the data were processed

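The authors hybridized each root sample on its own one-colour Agilent array and deposited the scanner output of Feature Extraction 10.5.1.1, in which the processed intensity of each spot is corrected for background, with marks for spot quality. The intensity table that the authors deposited for the whole series holds these values rescaled per array and served as an alternative. Levels were computed here by dividing each processed intensity by the 75th percentile of its array and taking log2, without control probes and marked spots. A probe was fitted if 1 group or more had it well above background on each of its arrays (31526 probes with values).

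limma 3.58.1 in R 4.3.3 fitted the 6 group means over all 18 arrays, with empirical Bayes moderation, two-sided tests and Benjamini-Hochberg adjustment per comparison. Python 3.11.15, numpy 2.4.6, pandas 2.3.3 and matplotlib 3.10.9 made tables and plots. The fit was run on simulated data with independent noise, without slides, marked spots or shared growth experiments. Nothing about the results is read from that run. The study's methods used a t-test with an unadjusted p of at most 0.01 and a log2 ratio of at least 1.

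The members and gene lists were chosen with earlier results of these data known. Named are the 3 transcripts, fitted genes of their families or with an aprl symbol, and per transcript the 3 probes with the highest r. Other pathway genes are named if past the methods' threshold, at 1 d or 4 d against 0 d or between the lines at 0 d. The genes sir, gsh1, gsh2, sat2 and sat3 fall outside this rule and are named to complete the list. Pathway genes were taken by symbol from RefSeq (Zm-B73-REFERENCE-NAM-5.0), since that table holds no product names, and 18727 transcripts of the array matched a gene there. The aprl1 gene was not matched. The build of that table differs from that of the array design, so no coordinates are given.

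Replicate numbers name samples from 3 growth experiments. Same-numbered arrays at 1 d and 0 d deviated together from their group means (r = 0.17 to 0.49, also on shared slides), and those at 4 d and 0 d did so only in part (r = −0.20 to 0.38). P-values measure the spread between these pools of seedlings, and the number of arrays limits the precision.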

Additional observations from a re-analysis of the deposited data

How the results depend on the processing

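Across 28 alternatives, the 4 changes that chose the transcripts kept their direction. Many alternatives could not alter these ratios, such as the methods' t-test or leaving out an array of another group. The changes were also chosen by their size on these arrays, so the kept direction is a description. Leaving out 1 array gave −1.30 to −0.93 and −1.87 to −1.58 for APR in Lo5 at 1 d and 4 d, 1.35 to 2.02 for cysteine synthase C1 in Lo5 at 1 d, and 1.37 to 1.82 for APS kinase in T250 at 4 d. The calls of cysteine synthase C1 between the lines did not hold throughout. At 0 d the ratio was −1.89 with the slide as a block and −2.03 with normexp, and −2.22 to −2.03 leaving out 1 array, with adjusted p up to 0.0793. At 4 d it was −1.94 with an adjusted p of 0.127 in the methods' t-test, −1.86 with the slide as a block, and −2.62 to −1.25 leaving out 1 array. The replicate block changed no call of the 3 transcripts (cysteine synthase C1, −2.07 at 0 d and −1.89 at 4 d). The APS kinase difference of 1.58 at 4 d was called by the methods' t-test (adjusted p = 0.0497) and when only the groups compared were fitted (adjusted p = 0.0154). The cause was not tested.

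Several values, none of them called in the fit reported, changed sign. APS kinase in Lo5 at 1 d was −0.055 with the replicate block, −0.15 with the slide block, −0.0089 with quantile normalization, −0.12 with normexp, −0.34 with marked spots kept, and −0.58 to 0.76 leaving out 1 array. Between the lines at 1 d, cysteine synthase C1 was −0.66 with marked spots kept, APR was −0.28 with the slide block and −0.11 to 0.53 leaving out 1 array, and APS kinase was −0.0060 to 1.83. APR between the lines at 4 d was −0.16 with normexp. Leaving out 1 array gave −0.64 to 0.044 for APR in T250 at 1 d, −0.25 to 1.13 for cysteine synthase C1 in T250 at 4 d, −0.32 to 1.51 for APS kinase in T250 from 1 d to 4 d, and −0.50 to 0.87 for the difference in the change of cysteine synthase C1 at 4 d. The difference in the change of APR at 4 d was −0.98 with normexp, and that of cysteine synthase C1 at 1 d was 1.56 with marked spots kept.

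Pathway genes called between the lines at 1 d were 0 by the methods' t-test, with normexp, and among probes well above background on all arrays, where the count at 4 d was 1. Leaving out 1 array gave 1 to 2 at 0 d and at 1 d, 2 to 3 at 4 d, and 0 to 1 in T250 at 1 d and at 4 d against 0 d. The count of all probes called ranged, over all alternatives, from 0 to 46 in Lo5 at 1 d (3 in the fit reported), 0 to 58 at 4 d (14), 0 to 314 in T250 at 1 d (3), 0 to 560 at 4 d (52), and between the lines 736 to 5372 at 0 d (4156), 3 to 5071 at 1 d (1293) and 2255 to 7073 at 4 d (6195). Without Lo5 1 d replicate 3 the 7 counts were 0, 43, 12, 222, 5372, 5071 and 7008, and without T250 0 d replicate 1 the T250 counts were 314 and 389.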
